A study of Arabidopsis thaliana with 8 samples.

Results

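The 10 genes described here make the plant hormone abscisic acid (ABA), release it from a stored form and break it down in Arabidopsis thaliana. They were taken by name and locus from 24132 genes listed in at least 1 of the 8 RNA sequencing libraries. NCED3, NCED5, ABA1, ABA2, ABA3 and AAO3 act in synthesis, BGLU18 in release, and CYP707A1, CYP707A2 and CYP707A3 in breakdown. All plants were 3 weeks old and of the Columbia-0 background. Wild-type plants (WT) and plants that overexpress VaWRKY14 (OE), a transcription factor of the WRKY family, were sampled with normal watering ("watered") or after 5 days without water ("drought"). Each of the 4 groups has 2 libraries. The labels call the OE plants a mixture of transgenic plants and name neither the promoter of the transgene nor the number of lines. They do not say whether the libraries of a group came from separate plants, so a p-value measures the spread between these libraries, which may be technical. OE drought library 1 was kept as OE by its title and source, although its genotype label reads VaWRKY15.

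ABA is made from carotenoids. Zeaxanthin epoxidase (ABA1) makes the epoxycarotenoid precursors in the plastid, and 9-cis-epoxycarotenoid dioxygenases (NCEDs) cut them to xanthoxin, the step commonly taken as rate-limiting. NCED3 is the member known for drought induction in leaves. Xanthoxin is turned into abscisic aldehyde by the dehydrogenase ABA2 and into ABA by the oxidase AAO3, whose molybdenum cofactor is activated by the sulfurase ABA3. Stored ABA glucose ester is hydrolysed by BGLU18, a beta-glucosidase of the endoplasmic reticulum and of ER bodies, the ER-derived compartments of the Brassicales. The CYP707A cytochromes P450 hydroxylate ABA at the 8' position, which starts its main route of breakdown.

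Library totals lay between 9591274 and 11378571 expected counts. Levels are given in CPM, counts scaled to the TMM-adjusted library size, on which 3 counts in a library equal 0.242 to 0.313 CPM. In a principal component analysis watered WT library 1 stood apart on the second component (41.4, against -24.8 to 6.37 for the 7 others). Without it BGLU18 stood at -1.25 for drought in WT (adjusted p = 0.00441), -0.74 for watered OE against WT (0.47) and 1.15 for the difference of the drought responses (0.159). CYP707A2 and CYP707A1 then stood at 2.71 (2.94e-05) and 1.12 (0.09) for drought in WT, and NCED3 at 1.21 (0.0622) for watered OE against WT. Leaf markers (LHCB1.3, RBCS1A, LHCA1, GAPB and RCA) summed to between 46927 and 72402 CPM in the 4 watered libraries and to between 20038 and 28198 CPM in the 4 drought libraries. The labels give whole plants as the tissue, but the root hair genes RHD6, COBL9 and EXPA7 were at 0 in all 8 libraries and the endodermis gene CASP1 had 1 count in total. MYB36 had 4 counts in total, and SHR and SCR, which shoots express too, held the rest of the root list, whose sum was 42.5 to 48.2 CPM. Seed markers summed to at most 0.411 CPM. The 8 flower markers (the tapetum gene A9, AG, PI, AP3, AP1 and SEP1, SEP2 and SEP3) summed to 27.1 and 21.0 CPM in the watered WT libraries, 6.02 and 22.6 in watered OE, 35.9 and 40.8 in drought WT, and 81.5 and 60.0 in drought OE.

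Of the 10 genes, 9 had enough counts to be tested, all but NCED5. In WT plants, drought raised the transcripts of the hydroxylase genes CYP707A2 and CYP707A1 and lowered that of BGLU18, while NCED3 differed by 0.09 ± 0.21 (log2 difference ± SE, as below). Between OE and WT plants no member passed the test, with or without water. The largest log2 differences of watered OE from watered WT plants were 1.01 ± 0.32 for CYP707A1, 0.94 ± 0.20 for NCED3 and -0.91 ± 0.21 for BGLU18. The libraries hold RNA of bulk tissue, in which fewer cells of a type and less RNA per cell cannot be told apart.

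By edgeR's quasi-likelihood test, with p-values adjusted by the Benjamini-Hochberg method over the 19259 genes tested and a threshold of 0.05, drought against normal watering in WT called 3 of 9 members. Among all genes tested 13% were called, 5.63% higher and 7.37% lower. The same contrast in OE called 0 of 9, where 16.7% of all genes were called. At an unadjusted p under 0.05 there were 4 members (30.8% of all genes). DESeq2 called 0 members and limma on log2(FPKM + 1) called 2, where limma called 7600 of the 19259 genes. OE against WT called 0 of 9 members with normal watering, against 0.389% of all genes, and 0 of 9 under drought, against 0.296%. DESeq2 and limma called 0 in both as well, and an unadjusted p under 0.05 was reached by 4 members in watered plants (10.2% of all genes) and 2 in drought plants (9.2%). The difference of the drought responses (OE minus WT) called 0 of 9 by each of the 3 tools, against 0.161% of all genes by edgeR, with 2 members at an unadjusted p under 0.05 (12.5% of all genes). Both libraries of one group lay above or below both of the other for 5 of 9 members in watered OE against WT (40.6% of all genes), 5 in drought OE against WT (40.5%), 7 for drought in WT (54.6%) and 5 for drought in OE (61.2%). The median log2 difference over the 9 members lay between -0.14 and 0.09 in the 5 comparisons. On the authors' FPKM scale (fragments scaled to transcript length and library total) the median gene moved up by 0.20 in drought WT and 0.30 in drought OE relative to the TMM scale, so small drought differences depend on the scaling.

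**Figure D1:**
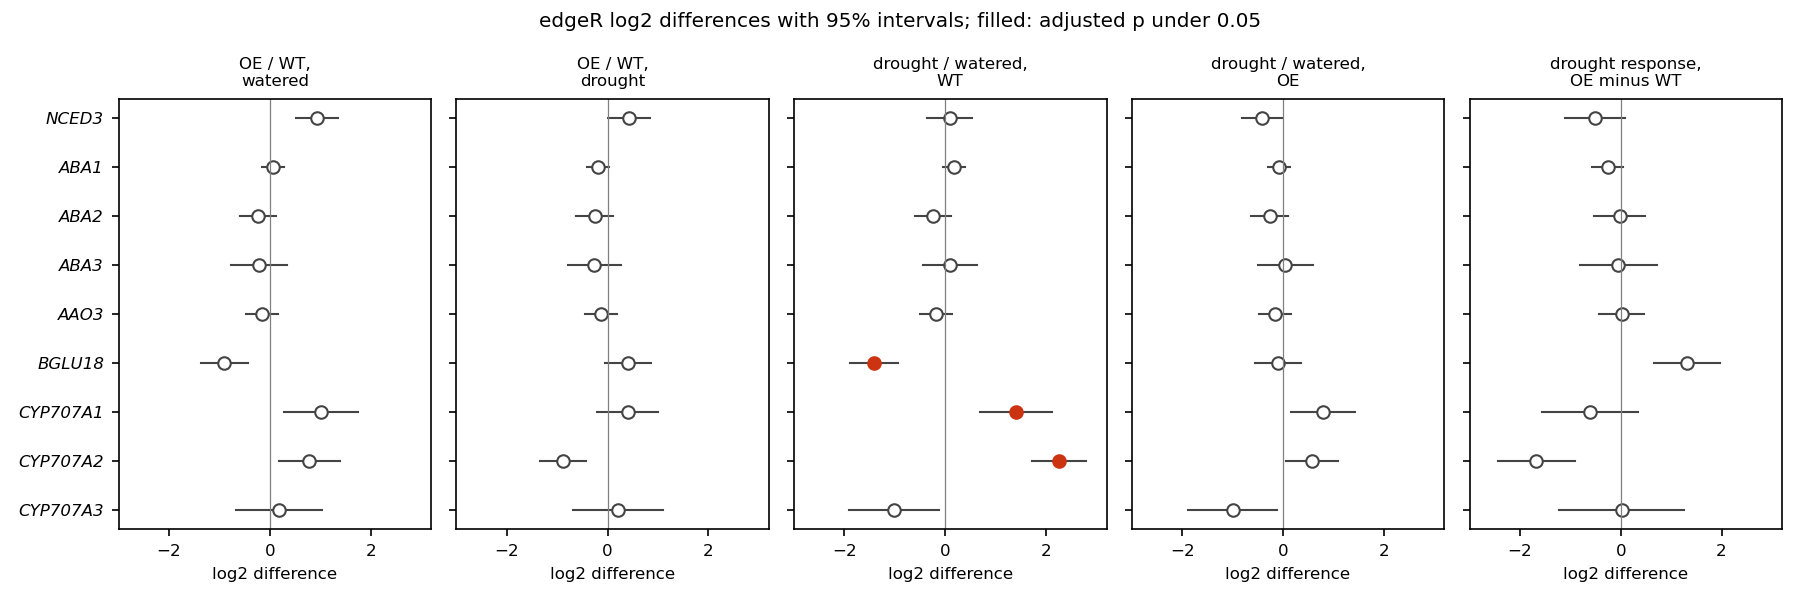
Log2 differences of the 9 tested ABA genes in the 5 comparisons (x axis, log2 units), with 95% intervals from the edgeR fit (2 libraries per group, 8 in all). Filled points passed an adjusted p of 0.05: BGLU18, CYP707A1 and CYP707A2 for drought in WT.

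The levels show how unequal these transcripts are. On the FPKM scale, which divides by transcript length, BGLU18 was the highest of the 10 in all 8 libraries, at 266 to 768 FPKM. ABA1 stood at 33.0 to 46.7 FPKM and CYP707A3 at 21.4 to 51.3. ABA2 reached 8.38 to 13.1 FPKM, and AAO3 (3.79 to 6.01), NCED3 (1.90 to 4.61) and ABA3 (1.96 to 5.21) were lower. CYP707A1 ranged from 1.86 to 12.6 FPKM and CYP707A2 from 0.98 to 7.95, while NCED5 was at most 0.18.

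**Figure D2:**
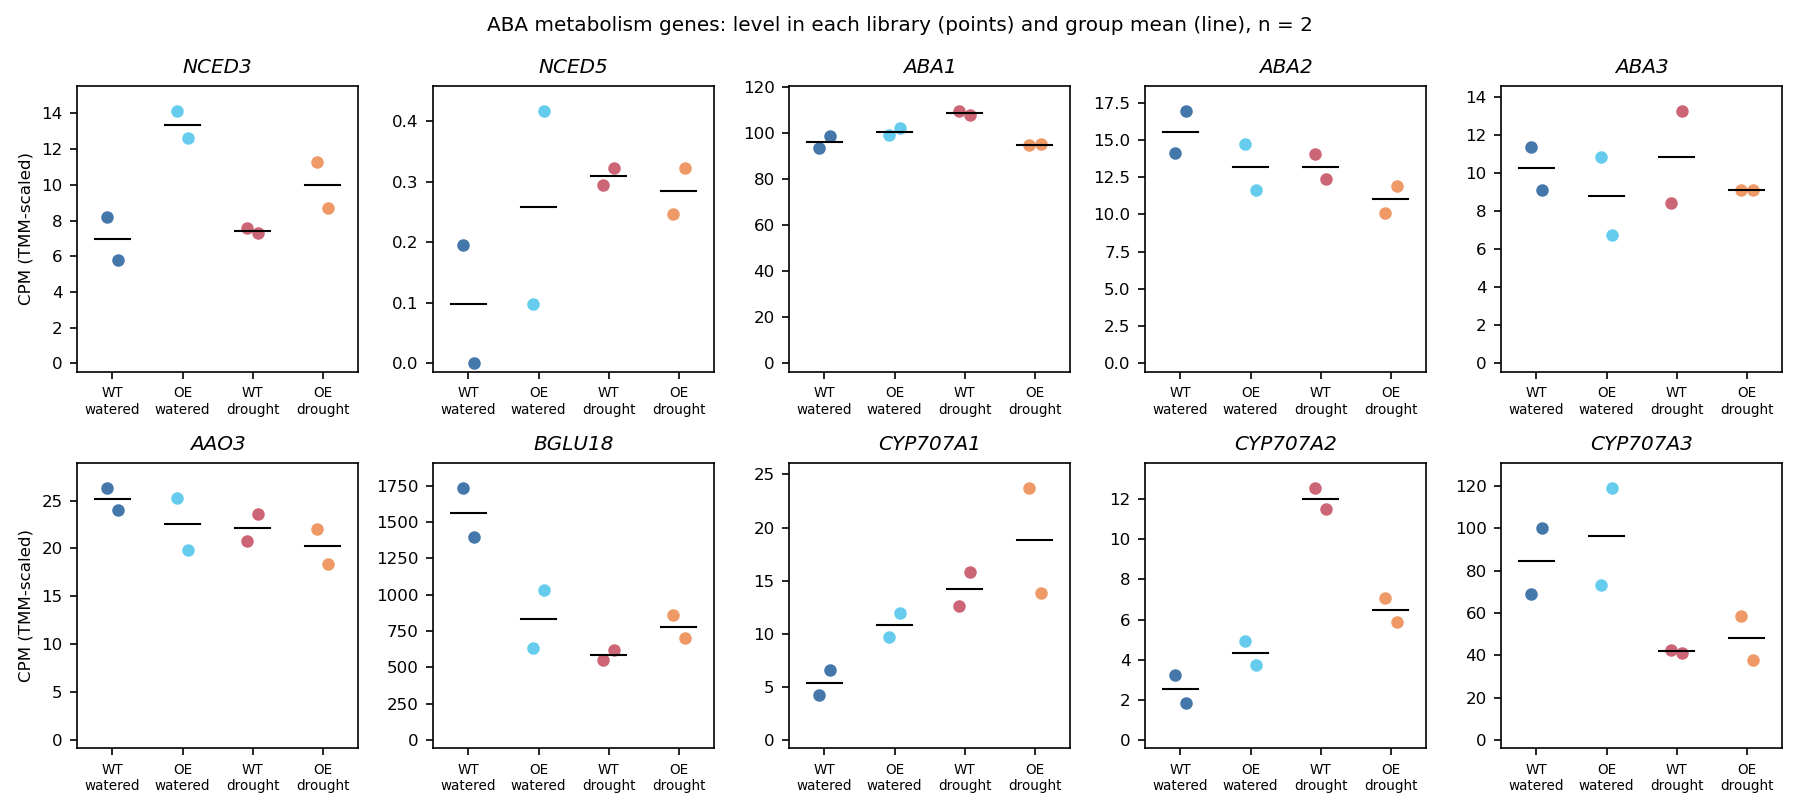
CPM of each of the 10 ABA genes in the 8 libraries (points, 2 per group) with the group mean (line); each panel has its own linear axis that includes 0. BGLU18 stands apart in watered WT and CYP707A2 in drought WT. The group means of ABA2, ABA3 and AAO3 differ less, and the ABA3 libraries spread within drought WT and watered OE.

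Synthesis begins with the dioxygenases. NCED3 (AT3G14440, chromosome 3, 4831286 to 4834015) had 8.19 and 5.77 CPM in watered WT, 7.56 and 7.28 in drought WT, 14.1 and 12.6 in watered OE, and 11.3 and 8.71 in drought OE. All 4 OE libraries lay above all 4 WT libraries, with watered OE the highest group and the WT groups overlapping. The nearest were drought OE library 2 (8.71 CPM) and watered WT library 1 (8.19). This order over both conditions was not tested, and the share of all genes that show it was not counted. OE exceeded WT by 0.94 ± 0.20 in watered plants (1.91-fold, 95% interval 1.43 to 2.57, adjusted p = 0.06) and by 0.43 ± 0.20 under drought (1.35-fold, adjusted p = 0.532), neither past the threshold. The watered difference passed in 2 of 14 alternative analyses, with adjusted p between 0.0144 and 0.279. Drought changed NCED3 by 0.09 ± 0.21 in WT (adjusted p = 0.834), with a 95% interval of -0.36 to 0.53, and by -0.42 ± 0.19 in OE (0.14). The interval for WT allows a rise of at most 1.45-fold.

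The 300 bases before the annotated start of NCED3, chr3:4834016-4834315 on the minus strand of TAIR10.1, are shown because the overexpressed protein belongs to the WRKY family. WRKY factors are known to bind the W-box, whose core is TTGAC. The sequence reads 5' to 3' in the direction of the gene, with the W-box core in capitals.
NCED3: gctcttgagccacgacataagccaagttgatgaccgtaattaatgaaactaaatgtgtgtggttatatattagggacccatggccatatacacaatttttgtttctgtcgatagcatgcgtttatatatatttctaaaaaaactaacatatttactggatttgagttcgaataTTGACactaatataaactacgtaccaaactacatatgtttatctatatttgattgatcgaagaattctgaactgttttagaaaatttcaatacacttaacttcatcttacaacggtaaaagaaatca
It holds 1 such core, 127 bases before the start, and neither the ABA response element core ACGTG nor the dehydration response core CCGAC on either strand. TTGAC on either strand occurs in 50.4% of 27443 such windows, ACGTG in 25.6% and CCGAC in 13.9%, and in 7, 4 and 1 of the 10 genes here. A match is a string of letters and says nothing of binding.

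NCED5 (AT1G30100), the other dioxygenase of the set, had 21 counts over all 8 libraries, a mean of 0.240 CPM with an exact 95% interval of 0.149 to 0.367 for counting error. It had 2 and 0 counts in watered WT, 3 and 4 in drought WT, 1 and 4 in watered OE, and 3 and 4 in drought OE. Each library was near or below the level of 3 counts, so no difference was detectable at this depth. Further dioxygenases were low too. NCED9 had at most 0.162 CPM, and NCED2 had at most 0.104 CPM outside the drought OE libraries. NCED2 had 2.79 CPM in drought OE library 1, whose genotype label reads VaWRKY15, and 0.807 CPM in library 2. A fit without a filter tested 8 genes of the list that holds both. It called 1 of them higher in drought OE against WT, where it called 108 genes in all. For drought in OE it called 2 of the 8 higher and 1 lower, where it called 3403 genes in all.

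ABA1 (AT5G67030, chromosome 5, 26753469 to 26757402), the epoxidase before the NCED step, had 93.6 and 99.1 CPM in watered WT, 110 and 108 in drought WT, 99.2 and 102 in watered OE, and 94.8 and 95.3 in drought OE. Drought WT was the highest group and did not overlap the others. Its difference was 0.17 ± 0.10 for drought in WT (adjusted p = 0.307), -0.19 ± 0.10 for OE against WT under drought (0.593), 0.06 for OE against WT in watered plants and -0.08 for drought in OE. On the FPKM scale drought in WT gave 0.41 (adjusted p = 0.0152 by limma), drought in OE turned to 0.26 and watered OE against WT to -0.02. With the median of all genes on that scale taken off, they were 0.18, -0.06 and 0.05.

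The cytosolic steps come next. ABA3 varied between the libraries of drought WT (8.45 and 13.3 CPM) and of watered OE (10.9 and 6.77). ABA2 (AT1G52340), the xanthoxin dehydrogenase, lay between 10.1 and 16.9 CPM over the 8 libraries, with watered WT (14.1 and 16.9 CPM) highest and above drought WT (14.05 and 12.4) without overlap. AAO3 (AT2G27150), which oxidises abscisic aldehyde, lay between 18.4 and 26.3 CPM. ABA3 (AT1G16540), the cofactor sulfurase, lay between 6.77 and 13.3 CPM, and its lowest and highest libraries were 1 of watered OE and 1 of drought WT. None of the 3 passed the test in any comparison, and their log2 differences between groups lay between -0.26 and 0.09. With 2 libraries per group the 95% intervals of these differences reached from -0.79 to 0.62. On the FPKM scale ABA2 and AAO3 stood at 0.01 and 0.04 for drought in WT and at 0.09 and 0.16 in OE, where the TMM scale gave -0.24, -0.18, -0.26 and -0.16. With the median of all genes taken off, the FPKM values were -0.21, -0.18, -0.23 and -0.16.

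The carotenoid genes that supply the precursors were counted as a list of 13, from phytoene synthase (PSY) to ABA4. Under drought 0 rose and 4 fell in WT, namely NPQ1 (-0.55 ± 0.11, adjusted p = 0.00528), PSY (-0.42 ± 0.11), LUT2 (-0.42 ± 0.13) and LUT1 (-0.39 ± 0.12). In OE plants 0 rose and 8 fell, among them NPQ1 (-0.81 ± 0.11), the isomerase Z-ISO (-0.81 ± 0.15), PSY (-0.50 ± 0.11) and LUT2 (-0.52 ± 0.12). NPQ1, violaxanthin de-epoxidase, runs the ABA1 reaction backwards, and LUT1 and LUT2 lead to lutein, the other branch of the pathway. The median of the list was -0.28 in WT and -0.39 in OE, against 0.02 over all genes in both. Of all 19259 genes tested 1420 were called lower in WT and 1911 in OE. Of the 12 falls, NPQ1 and Z-ISO in OE held in 14 of 14 alternative analyses, and each of the others was lost without at least 1 of the libraries compared. The falls also depend on the scaling: on the FPKM scale 0 rose and 0 fell in WT, and 1 rose and 2 fell in OE. Of all genes that scale called 3882 higher and 704 lower in WT, and 6932 higher and 668 lower in OE. The summed leaf markers fell in the same libraries, and their part in the list's values was not tested. OE against WT called 0 of 13 in watered plants and in drought, with 1 and 0 at an unadjusted p under 0.05 and 0 by DESeq2 in both.

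A list of dioxygenases and oxidases outside the set also held the hydroxylase gene CYP707A4. Of its 9 genes 5 were testable and 1 rose with drought in WT, where 5.63% of all genes were called higher. CCD4, a plastid dioxygenase that cleaves carotenoids outside the ABA route, had 48.7 and 53.3 CPM in watered WT, 105 and 84.2 in drought WT, 83.1 and 71.8 in watered OE, and 78.2 and 72.4 in drought OE. All 6 other libraries lay above the watered WT pair. The rise in WT was 0.89 ± 0.13 (adjusted p = 0.000394), held in 14 of 14 alternative analyses, while OE gave -0.04 ± 0.13 for drought. Watered OE stood 0.60 ± 0.13 above watered WT (adjusted p = 0.06), and the difference of the responses was -0.93 ± 0.18 (adjusted p = 0.0513). DESeq2 and the fit without a filter each called 1 gene of the list higher in watered OE and 1 lower for the difference of responses, the latter also with a replicate block.

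BGLU18 (AT1G52400, chromosome 1, 19514989 to 19518411) had 1737 and 1395 CPM in watered WT, 552 and 622 in drought WT, 634 and 1034 in watered OE, and 858 and 699 in drought OE. The watered WT pair lay above all 6 other libraries, drought WT below all others, and the OE groups overlapped each other. Drought lowered BGLU18 in WT by 1.42 ± 0.22 on the log2 scale (2.67-fold lower, adjusted p = 0.00118), a call kept in 14 of 14 alternative analyses. In OE plants the drought difference was -0.10 ± 0.21 (adjusted p = 0.798). On the FPKM scale it was 0.29, or -0.03 with the median of all genes on that scale taken off. The difference between these responses was 1.32 ± 0.30 and did not pass (adjusted p = 0.0924). It passed without watered WT library 2 (1.46, adjusted p = 0.0334) and without watered OE library 2 (1.71, 0.013), and without watered OE library 1 it was 1.01.

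Watered OE plants stood 0.91 ± 0.21 below watered WT in BGLU18 (1.88-fold, 95% interval -1.37 to -0.44 on the log2 scale, adjusted p = 0.115), a value that did not pass. It ranged from -1.303 without watered OE library 2 (adjusted p = 0.0218) to -0.60 without watered OE library 1, and was -1.06 without watered WT library 2 (0.0355). Under drought OE stood 0.41 ± 0.21 above WT (adjusted p = 0.594). BGLU18 held 266 and 407 FPKM in watered OE and 273 and 330 FPKM in drought WT.

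Other ER body genes were read beside BGLU18. TSA1, which takes part in ER body formation, starts 2191 bases past the end of BGLU18 on the same strand of chromosome 1. It had 285 and 236 CPM in watered WT, 139 and 176 in drought WT, 122 and 161 in watered OE, and 130 and 158 in drought OE, so that watered WT was again the highest pair. TSA1 fell in watered OE against WT (-0.89 ± 0.17, adjusted p = 0.0445) and with drought in WT (-0.73 ± 0.16, 0.011). MEB1, an ER body membrane protein, fell in the same comparisons (-0.90 ± 0.15 and -0.74 ± 0.15, adjusted p = 0.0189 and 0.00367). NAI2, a body component, fell with drought in WT (-1.301 ± 0.19, adjusted p = 0.000407) and in OE (-0.66 ± 0.19, 0.0287), and stood at -0.55 ± 0.18 in watered OE against WT (0.262).

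In all, 6 of 8 listed ER body genes were testable, of which 2 fell and 0 rose in watered OE against WT, 3 fell and 0 rose with drought in WT, and 1 fell and 0 rose with drought in OE. In these comparisons 0.389%, 13% and 16.7% of all genes were called in either direction. The list medians were -0.58, -0.76 and -0.61, against 0.00, 0.02 and 0.02 over all genes. Under drought, OE against WT called 0 of the 6 by edgeR and by DESeq2, with 0 at an unadjusted p under 0.05. BGLU23 (PYK10), the main ER body beta-glucosidase of roots, was at 10.3 to 48.9 CPM, and MEB2, the paralog of MEB1, at 1.73 to 4.34 CPM. Without watered WT library 1 or watered OE library 1, and with only the 4 watered libraries fitted, the watered calls of TSA1 and MEB1 were lost, that of TSA1 also without either drought WT library and by limma on the FPKM scale, with adjusted p of up to 0.221 and 0.139 over the alternatives. TSA1's fall with drought in WT was lost without watered WT library 1 or drought WT library 1 and on the FPKM scale (adjusted p of up to 0.0883), and NAI2's in OE by DESeq2, on the FPKM scale and without either watered OE library or drought OE library 1 (up to 0.253). The falls of NAI2 and MEB1 with drought in WT held in 14 of 14.

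**Figure D3:**
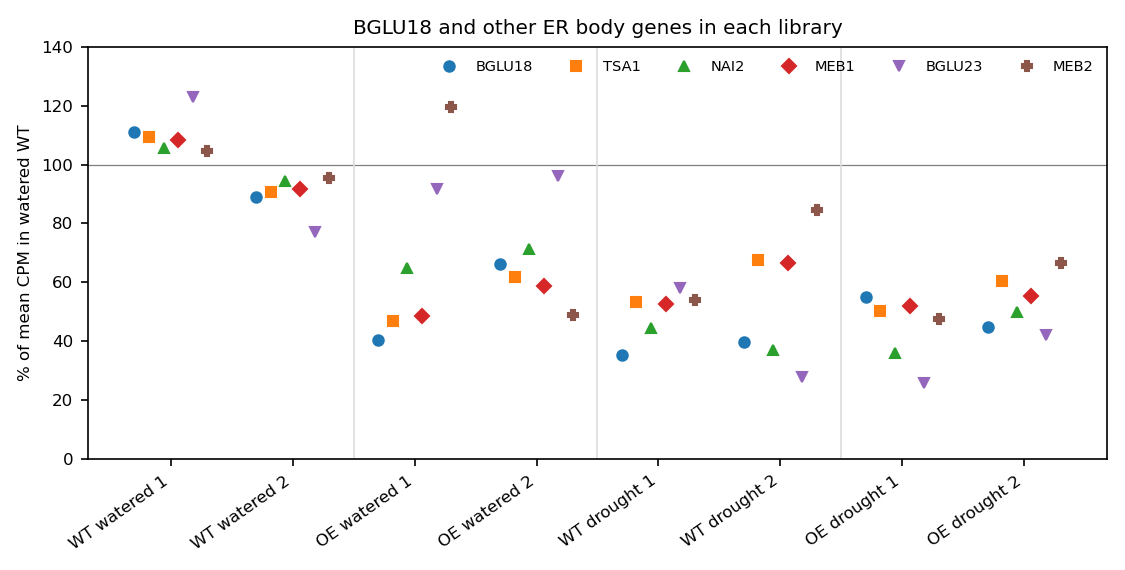
CPM of BGLU18 and of 5 other ER body genes in each library, as a percent of that gene's mean in watered WT (y axis). In watered OE library 1 BGLU18, TSA1 and MEB1 stood at 40.5, 46.7 and 48.6%, BGLU23 at 91.6% and MEB2 at 119.6%.

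Among the breakdown genes, 2 of 3 rose with drought in WT. CYP707A2 (AT2G29090, chromosome 2, 12494826 to 12499723), best known for clearing ABA from seeds at imbibition, had 3.22 and 1.83 CPM in watered WT, 12.6 and 11.5 in drought WT, 4.94 and 3.75 in watered OE, and 7.07 and 5.89 in drought OE. The 4 groups did not overlap, in the order watered WT, watered OE, drought OE and drought WT. Drought raised CYP707A2 in WT by 2.25 ± 0.25 (4.75-fold, 95% interval 3.28 to 6.89, adjusted p = 6.19e-05), a call held in 14 of 14 alternatives. In OE the drought difference was 0.57 ± 0.24 (1.49-fold, adjusted p = 0.125). On the FPKM scale it was 0.71 (adjusted p = 0.0202 by limma), or 0.39 with the median of all genes on that scale taken off. The difference of the responses was -1.68 ± 0.36, not past the threshold (adjusted p = 0.0671); it passed without watered WT library 1 (-2.14, 0.0309) and without watered OE library 2 (-1.86, 0.0435), and without watered WT library 2 it was -1.32.

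CYP707A2 in drought OE stood 0.89 ± 0.22 below drought WT (1.85-fold, adjusted p = 0.134, up to 0.691 over the 14 alternatives), and in watered OE 0.79 ± 0.29 above watered WT (adjusted p = 0.335). The drought value passed in 3 of 14 alternatives, namely when either watered WT library was left out (adjusted p = 0.0383 without library 1 and 0.0367 without library 2) and when only the 4 drought libraries were fitted (0.02). The watered value was 1.25 without watered WT library 1 and 0.44 without library 2.

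CYP707A1 (AT4G19230, chromosome 4, 10521259 to 10523961), a hydroxylase that acts in guard cells and in maturing seeds, had 4.20 and 6.55 CPM in watered WT, 12.6 and 15.8 in drought WT, 9.67 and 11.98 in watered OE, and 23.8 and 13.9 in drought OE. Watered WT was below all 6 other libraries, and the 2 drought groups overlapped. The rise with drought in WT was 1.40 ± 0.31 (2.65-fold, 95% interval 1.62 to 4.32, adjusted p = 0.0187). That call was lost without watered WT library 1 (1.12, adjusted p = 0.09) and without drought WT library 2 (1.23, 0.13). In OE drought gave 0.80 ± 0.28 (adjusted p = 0.0861), or 1.13 without drought OE library 2 (0.00681) and 0.36 without drought OE library 1. On the FPKM scale drought in OE gave 0.96 (adjusted p = 0.0133 by limma), or 0.64 with the median of all genes taken off. OE stood 1.01 ± 0.32 above WT in watered plants (2.01-fold, adjusted p = 0.32) and 0.40 ± 0.27 above it under drought (0.713), where the sign was negative (-0.03) without drought OE library 1.

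CYP707A3 (AT5G45340, chromosome 5, 18368532 to 18371021), the isoform known to respond to rehydration in vegetative tissue, went the other way. It had 69.1 and 100.03 CPM in watered WT, 42.7 and 41.0 in drought WT, 73.3 and 119 in watered OE, and 58.4 and 37.8 in drought OE. All 4 watered libraries lay above all 4 drought libraries, an order that was not tested over both genotypes. The genotypes overlapped in each condition. The log2 difference for drought was -1.02 ± 0.35 in WT (adjusted p = 0.14) and -0.9998 ± 0.34 in OE (0.122), with nearly the same size and neither past the threshold. With only the 4 WT libraries fitted the adjusted p was 0.00288, and without watered OE library 1 drought in OE gave -1.31 (0.0477). The spread between the watered libraries of each genotype was large for this gene, and watered OE against WT stood at 0.19 ± 0.34.

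Within each library the hydroxylase transcripts can be compared per length without any scaling between libraries. CYP707A3 made up 89.9 and 92.2% of the summed FPKM of the 3 genes in watered WT, and 61.8 and 59.6% in drought WT. In watered OE it was 82.8 and 88.7%, and in drought OE 65.8 and 65.6%. CYP707A2 took 4.98 and 1.96% in watered WT and 21.4 and 19.1% in drought WT, but 9.07 and 12.05% in drought OE, where CYP707A1 took 25.1 and 22.3%. The sum of the 3 genes lay between 36.6 and 57.8 FPKM in watered and between 32.6 and 50.3 FPKM in drought libraries, ranges that overlap on this scale. Unlike the shares, the sums depend on the scaling between libraries. The FPKM scale moved the median gene up by 0.20 in drought WT and 0.30 in drought OE relative to the TMM scale, so the overlap does not show equal totals. CYP707A4, the remaining family member, had 0.987 to 3.16 CPM.

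**Figure D4:**
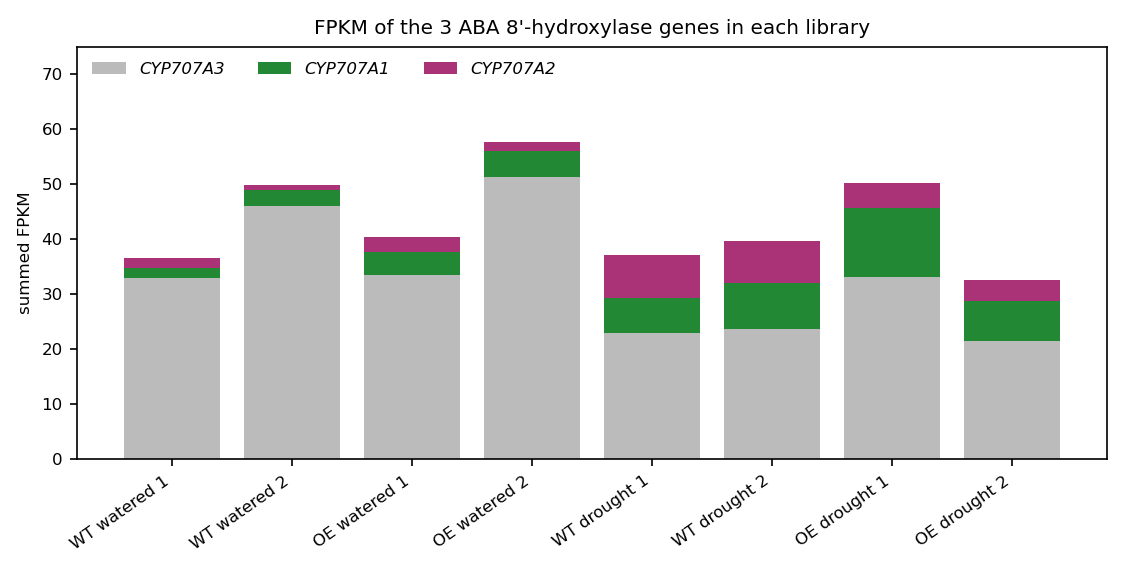
FPKM of CYP707A3, CYP707A1 and CYP707A2 stacked for each of the 8 libraries (y axis, summed FPKM). CYP707A3 holds most of each bar, from 59.6% in drought WT library 2 to 92.2% in watered WT library 2.

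Flower marker levels are given beside those of the hydroxylases. Their sum was highest in drought OE library 1 (81.5 CPM), the library with the highest CYP707A1 (23.8 CPM). CYP707A2 was highest in the drought WT libraries, where the flower sum was 35.9 and 40.8 CPM, and stood at 7.07 and 5.89 CPM in drought OE, where the flower sum was 81.5 and 60.0 CPM. In watered OE library 1 the sum was 6.02 CPM with CYP707A1 at 9.67, above both watered WT libraries. All 8 markers were positive for drought in both genotypes, with 0 called by edgeR in WT (2 at an unadjusted p under 0.05) and 6 in OE. The shares of all genes called were 13% and 16.7%. A9 was at 0 in watered OE library 1. The part of flower tissue in the hydroxylase values was not tested.

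**Figure D5:**
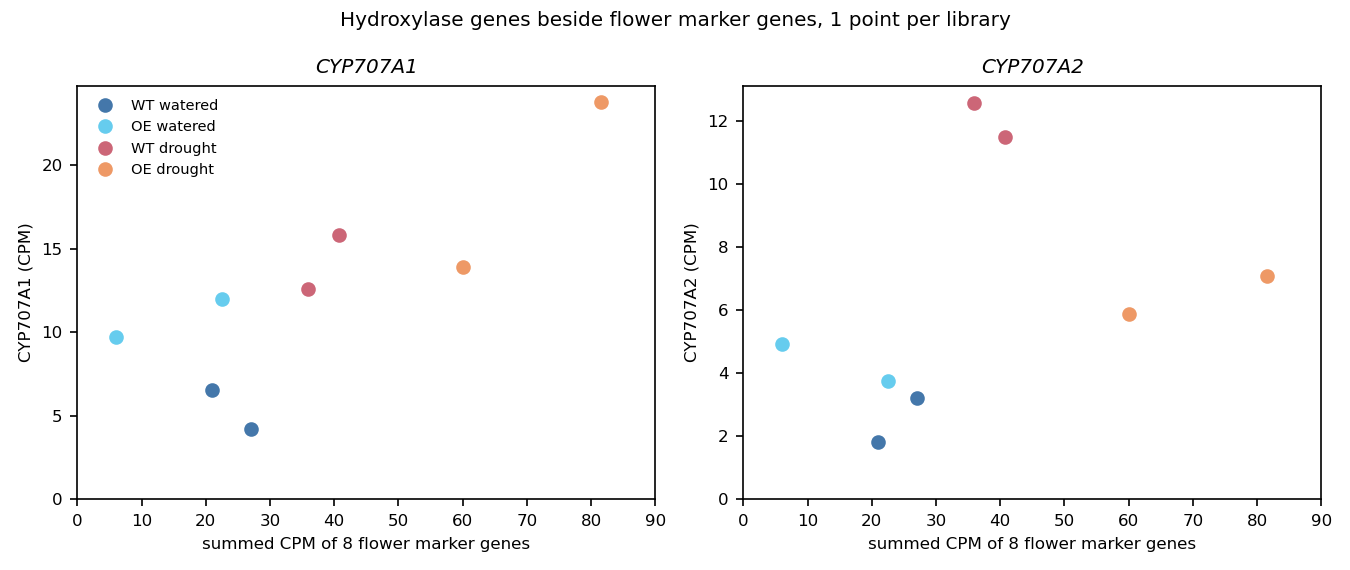
CPM of CYP707A1 (left) and CYP707A2 (right) against the summed CPM of 8 flower markers, 1 point per library. The drought OE libraries have the highest flower sums (60.0 and 81.5 CPM) but lower CYP707A2 than drought WT.

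The windows before CYP707A1, CYP707A3 and CYP707A2 are shown because the former pair share a long identical stretch, while CYP707A1 rose with drought in WT and CYP707A3 stood at -1.02. They lie at chr4:10520959-10521258 (plus strand), chr5:18371022-18371321 (minus) and chr2:12499724-12500023 (minus) of TAIR10.1, and read 5' to 3' in the direction of each gene. Capitals mark TTGAC and ACGTG on either strand, which appear as GTCAA and CACGT where the match is on the other strand.
CYP707A1: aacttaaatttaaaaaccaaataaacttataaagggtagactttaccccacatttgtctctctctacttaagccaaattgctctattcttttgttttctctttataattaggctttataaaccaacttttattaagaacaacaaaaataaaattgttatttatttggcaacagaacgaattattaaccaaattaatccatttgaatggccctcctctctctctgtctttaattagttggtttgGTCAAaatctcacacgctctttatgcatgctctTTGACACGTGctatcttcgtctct
CYP707A3: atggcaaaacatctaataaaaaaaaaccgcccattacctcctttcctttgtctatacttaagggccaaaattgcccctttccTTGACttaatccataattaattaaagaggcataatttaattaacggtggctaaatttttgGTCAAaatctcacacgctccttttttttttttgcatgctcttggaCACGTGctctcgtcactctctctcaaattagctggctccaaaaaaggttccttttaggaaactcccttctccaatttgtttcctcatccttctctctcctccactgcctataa
CYP707A2: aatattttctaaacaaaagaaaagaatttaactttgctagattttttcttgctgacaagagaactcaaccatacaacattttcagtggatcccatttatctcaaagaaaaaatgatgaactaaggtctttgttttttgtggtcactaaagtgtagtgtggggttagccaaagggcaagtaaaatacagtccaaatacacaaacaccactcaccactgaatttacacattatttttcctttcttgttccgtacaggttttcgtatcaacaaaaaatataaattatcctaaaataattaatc
CYP707A1 and CYP707A3 each hold 2 W-box cores and an ABA response element core read on both strands of CACGTG. The W-box cores of CYP707A1 lie 57 and 24 bases before the start and those of CYP707A3 218 and 158 bases before it. CYP707A2, the member with the largest rise, holds none of the 3 motifs in this window. The shared stretch is 23 bases long and carries a W-box core, beginning 61 bases before the start of CYP707A1 and 162 before that of CYP707A3.
shared stretch: tttgGTCAAaatctcacacgctc
Of the 45 pairs among the 10 genes, the next longest identical stretch was 12 bases. The BGLU18 window also held none of the 3 motifs.

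Genes that conjugate, release or reduce ABA outside the set were called or not depending on the scaling. Of 6 testable of 8, 0 rose and 0 fell with drought in WT, where 13% of all genes were called. At an unadjusted p under 0.05 there were 0 and 0, and DESeq2 called 0. The FPKM scale called 2 of the list higher, and called 3882 of all 19259 genes higher. In OE 0 rose and 1 fell, the ABA glucosyltransferase UGT75B1 (-0.38 ± 0.12, adjusted p = 0.037), a fall lost by DESeq2, on the FPKM scale, and without watered OE library 2 or either drought OE library (adjusted p of up to 0.78). The FPKM scale called 4 of the 6 higher and 0 lower in OE, where it called 6932 of all 19259 genes higher, and DESeq2 called 0. By edgeR 16.7% of all genes were called in OE, a share near that of the list. UGT71C5, which makes the glucose ester that BGLU18 splits, ranged from 43.6 to 57.1 CPM. BGLU33, the vacuolar counterpart of BGLU18, had 60.0 to 81.2 CPM.

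ABA transport genes were 7 testable of 8. With drought 1 rose and 0 fell in WT, where 13% of all genes were called, a share near that of the list. In OE 2 rose and 0 fell, against 16.7% of all genes. ABCG25, the exporter that carries ABA out of vascular cells, had 22.4 and 19.1 CPM in watered WT, 35.6 and 37.6 in drought WT, 20.6 and 19.9 in watered OE, and 30.6 and 33.3 in drought OE, so every drought library lay above every watered one. It rose by 0.82 ± 0.12 in WT (adjusted p = 0.00059) and by 0.66 ± 0.13 in OE (0.00254). ABCG18, an importer, rose in OE by 1.14 ± 0.21 (0.00208), from a mean of 3.75 to 8.16 CPM. ABCG40, the guard cell importer, had 51.5 CPM in watered WT library 1 and 2.81 to 7.20 CPM in the 7 others.

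Of 7 genes known to act on ABA synthesis, 2 rose and 0 fell with drought in WT and 1 rose and 0 fell in OE. The shares of all genes called were 13% and 16.7%, the latter near that of the list in OE. The FPKM scale called 4 and 5 of the list higher and 0 lower, and called 3882 and 6932 of all 19259 genes higher. BAM3, a receptor kinase through which the peptide CLE25 is known to raise NCED3, rose by 0.58 ± 0.11 in WT (adjusted p = 0.00236) and 0.56 ± 0.11 in OE (0.00262). ATAF1, a NAC factor known to bind the NCED3 promoter, rose in WT by 0.61 ± 0.13 (0.00651), lost without watered WT library 2 or drought WT library 2 (adjusted p of up to 0.0845). OE against WT called 0 of 7 in both conditions by edgeR and by DESeq2, with 0 at an unadjusted p under 0.05 in watered plants and 1 lower under drought.

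Genes known to respond to ABA were 15 testable of 17. The libraries hold no measure of ABA itself, and whether these genes follow its level was not tested. In watered OE against WT 2 rose and 0 fell, where 0.389% of all genes were called. At an unadjusted p under 0.05, 4 were higher and 1 lower, against 10.2% of all genes in either direction. Of the 15, 7 were positive and 8 negative, with a median of -0.02 against 0.00 over all genes. RD29B, another gene of the list, had at most 0.385 CPM. RD29A, a desiccation-responsive gene, had 127 and 108 CPM in watered WT against 269 and 241 in watered OE, without overlap (1.12 ± 0.13, adjusted p = 0.00101). PP2CA, a phosphatase that damps ABA signalling, rose by 0.76 ± 0.13 (0.0189), a call lost without watered WT library 1 or either watered OE library, with only the watered libraries fitted and on the FPKM scale, with adjusted p of up to 0.149 over the alternatives. With drought 5 rose and 0 fell in WT (PP2CA, RD29A, HAI2, ABI2 and HB-12), and 4 rose and 0 fell in OE (HB-12, HAI2, ABI2 and HB-7). By edgeR 13% of all genes were called in WT and 16.7% in OE. The FPKM scale called 9 of the list higher in WT and 11 in OE, and called 3882 and 6932 of all 19259 genes higher. DESeq2 called 3 and 4 of the list, and both called 0 lower. HAI2, another phosphatase of the pathway, rose by 1.43 ± 0.30 in WT and 1.56 ± 0.29 in OE. The WT calls of HAI2, ABI2 and HB-12 were lost without watered WT library 2 (adjusted p of up to 0.0531, 0.306 and 0.22 over the alternatives), those of ABI2 and HB-12 also by DESeq2, with only the WT libraries fitted and without any 1 of the 4 drought libraries, and HB-12 without watered WT library 1. In OE, ABI2 was lost without watered OE library 2 (0.0526) and HB-7 without either watered OE library or drought OE library 2 (up to 0.122). RD29A rose in WT by 0.65 ± 0.13 and stood at -0.18 ± 0.13 in OE, and the difference of the responses did not pass (-0.83 ± 0.18, adjusted p = 0.0703). For that difference edgeR called 0 of the 15, while DESeq2 called 2 of the 15 lower and 0 higher. The fit without a filter called 2 of 17 lower and 0 higher. Of all genes DESeq2 called 146 and the fit without a filter 202. Under drought OE against WT called 0 of 15 by edgeR and by DESeq2, with 3 higher at an unadjusted p under 0.05 (9.2% of all genes in either direction).

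By Pearson correlation of log2 CPM over the 8 libraries, among 15255 genes averaging 5 CPM or more, the genes closest to NCED3 were LTPG2 (r = 0.946), AT1G14820 (0.942), AST56 (0.938) and AT1G16850 (0.936). For BGLU18 they were ATBET12 (0.979), the extensin EXT3 (0.975), AT3G18420 (0.956) and LARP6b (0.942). EXT3 had 252 and 195 CPM in watered WT and 89.1 to 135 CPM in the other 6 libraries. For CYP707A1 they were the kinase gene CRK (0.979), AT4G23860 (0.975), AT5G35370 (0.964) and the amino acid permease AAP1 (0.964). These values describe 8 libraries that share the 4 groups, and no test was made. Among the members themselves the highest were 0.677 for CYP707A1 with CYP707A2, 0.673 for AAO3 with ABA3 and 0.635 for BGLU18 with CYP707A3. The lowest were larger in size, at -0.832 for BGLU18 with CYP707A2, -0.788 for CYP707A2 with CYP707A3 and -0.767 for ABA2 with CYP707A1.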

How the data were processed

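RNA was sequenced from whole plants, per the labels. The authors deposited 1 table per library that holds, per the file headers, an expected count per gene, not normalized, and an FPKM value per gene, scaled by the authors to gene length and library total. edgeR, featureCounts, HISAT2 2.0.5 and STAR are named in the submitters' processing notes without their order, as is the build TAIR10. Genes absent from a library's table were set to 0 counts. Whether strand was used is not given in the sources used here. Expected counts were rounded and analysed with edgeR 4.0.16 in R 4.3.3: filterByExpr (minimum count 10, 19259 genes kept), TMM, 1 mean per group over 8 libraries (4 residual degrees of freedom), robust quasi-likelihood F tests, Benjamini-Hochberg adjustment over all genes tested. The SE is the log2 difference divided by the square root of F. The biological coefficient of variation was 10.2%, and 3 counts equal 0.242 to 0.313 CPM. Alternatives used RLE factors, DESeq2 1.42.0, no filter, fewer libraries, a replicate block, and limma 3.58.1 on log2(FPKM + 1). The fit was tested on simulated data. The 10 members and all lists were chosen with earlier results of these data known. Named were all members and up to 4 called genes per list and comparison with the smallest adjusted p; a gene beyond these, such as NCED2, NCED9, CYP707A4, UGT71C5, BGLU33, BGLU23, MEB2 or ABCG40, was named after its values were seen. The genes most alike to NCED3, BGLU18 and CYP707A1 are the 4 with the highest Pearson r. Promoter windows and gene positions come from the TAIR10.1 annotation. Intervals on counts cover counting error only.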

Additional observations from a re-analysis of the deposited data

How the results depend on the processing

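Over 14 alternative analyses, the WT drought calls of BGLU18 (-1.57 to -1.17) and CYP707A2 (1.89 to 2.71) held in all, and that of CYP707A1 in 12 of 14. Counts of all genes called moved most. In watered OE against WT, 75 became 171 by DESeq2, 166 without a filter, 21 with only the compared libraries and 35 by limma; in drought OE against WT, 57 became 91, 108, 233 and 35. Drought calls rose by limma on the FPKM scale from 2505 to 4586 in WT and from 3214 to 7600 in OE, with 84.6 and 91.2% of them higher, against 43.3 and 40.5% by edgeR and 32.8 and 29.5% by DESeq2. The difference of responses went from 31 to 146 (DESeq2) and 202 (no filter). Member calls went from 0 to 1 in watered OE against WT without a filter and with a replicate block, from 0 to 1 in drought OE against WT with only the compared libraries, from 0 to 2 for drought in OE by limma, and from 0 to 2 for the difference without a filter. For drought in WT, limma on the FPKM scale also called ABA1 (adjusted p = 0.0152). The fit of only the WT libraries also called CYP707A3 (0.00288). The cause was not tested.

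Leaving out 1 library gave 16 to 438 calls in watered OE against WT, 10 to 130 in drought OE against WT, 1118 to 2578 for drought in WT, 1456 to 3562 in OE and 2 to 326 for the difference. The member calls were then 0 to 1, 0 to 1, 2 to 3, 0 to 1 and 0 to 2. Where an arm kept 1 library, it is assumed to vary like the others. Same-numbered libraries did not deviate together (correlations from -0.080 to 0.063), and the main fit did not pair them. Such correlations cannot tell whether libraries of equal number were grown or prepared together. A replicate block gave 75, 63, 2397, 3047 and 44 calls, and in watered OE against WT it put NCED3 at 0.94 (adjusted p = 0.0441).

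Signs of small values, none past the threshold, turned on the FPKM scale for ABA1 in watered OE against WT (-0.020), ABA2 (0.012) and AAO3 (0.041) for drought in WT, ABA1 (0.26), ABA2 (0.090), AAO3 (0.16) and BGLU18 (0.29) for drought in OE, and ABA2 (0.078) and ABA3 (0.075) for the difference. With the median of all genes on the FPKM scale taken off, each of these values had the sign of the TMM scale. Without 1 library, ranges crossed 0 in watered OE against WT for AAO3 (-0.35 to 0.0054), ABA3 (-0.60 to 0.081) and CYP707A3 (-0.21 to 0.50), and under drought for ABA3 (-0.53 to 0.10), CYP707A1 (-0.028 to 0.74) and CYP707A3 (-0.14 to 0.48). They also did for drought in WT for ABA3 (-0.28 to 0.35) and NCED3 (-0.14 to 0.36), for drought in OE for AAO3 (-0.32 to 0.027), ABA3 (-0.25 to 0.43) and BGLU18 (-0.41 to 0.29), and for the difference for AAO3 (-0.14 to 0.21), ABA2 (-0.18 to 0.15), ABA3 (-0.34 to 0.34) and CYP707A3 (-0.32 to 0.41). Over the tested members and comparisons, 562 values kept direction and side of the threshold, 38 turned, 19 newly passed and 2 no longer passed. Depth left NCED5 untested.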
